A study of Homo sapiens with 12 samples.

Results

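The genes described here make up the folding and quality-control machinery of the endoplasmic reticulum (ER) and the sensors that adjust it: 37 genes named by symbol, from chaperones and folding enzymes to the degradation machinery and the stress sensors ERN1, ATF6 and EIF2AK3. Of these, 35 had a probe set (the group of short probes that reads 1 transcript) that carries their symbol alone, among 19775 such genes on the array, and all 35 passed the filter on dim signals, as did 13067 genes of the series. TXNDC5, a protein disulfide isomerase, and SYVN1, the ubiquitin ligase at the centre of ER-associated degradation, were present only on probe sets that carry several symbols and have no value here. Each gene is given by the probe set with its highest mean signal over the 12 arrays.

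Expression was measured on Affymetrix arrays in HEK cells, which derive from human embryonic kidney, in stable lines that carry a tetracycline-inducible TRPM7, a membrane protein in which an ion channel for divalent cations is joined to a kinase. Cells of the line with the wild-type channel (WT line) were given tetracycline or left untreated, and so were cells of a line whose channel lacks the entire kinase domain (TRPM7DKD, the mutant line), made by the submitters as a nonfunctional counterpart so that effects of the inducer alone can be seen. Each of the 4 groups had 3 arrays. Tetracycline was given for 72 hours in an amount of 1 ug, for which the labels state no volume, and all groups grew in medium with 5 ug/mL blasticidin. Whether a line is 1 clone, and whether replicates are separate cultures, is not in the labels; p-values therefore cover the spread among these arrays, which may be technical, and any difference between the lines also holds whatever else sets the lines apart.

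The ER folds proteins that are secreted or sit in membranes. When unfolded proteins build up, the chaperone HSPA5 leaves the sensors: ERN1 then splices the mRNA of the transcription factor XBP1, EIF2AK3 phosphorylates the initiation factor eIF2alpha and slows translation while ATF4 is made, and ATF6 travels to the Golgi, where it is cut to release a transcription factor. XBP1 and ATF6 bind ER stress response elements in the promoters of chaperone, folding and degradation genes, so the genes below include both the sensors and many of their known targets.

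Promoters are shown for the members that carry the element and on which the comparison of element and response turns: XBP1, HSPA5 and HERPUD1, which rose in the WT line, and the chaperone genes HSP90B1 and CALR, which did not pass the test there. Each sequence is the 250 bases before the annotated gene start, read 5′ to 3′ on the strand of the gene, from RefSeq on GRCh38.p14. Capitals mark the element, which is an ERSE (CCAAT, then 9 bases of any letter, then CCACG) in XBP1, HSPA5, HSP90B1 and CALR. In HERPUD1 they mark an ERSE-II (ATTGG, 1 base, CCACG) and, upstream of it, the C/EBP-ATF composite TTGCATCA. A run that starts with CGTGG is the same element on the opposite strand. The windows lie at chr22:28800570-28800819 (minus strand) for XBP1, chr9:125241344-125241593 (minus strand) for HSPA5, chr16:56931892-56932141 (plus strand) for HERPUD1, chr12:103930160-103930409 (plus strand) for HSP90B1 and chr19:12938359-12938608 (plus strand) for CALR.
XBP1 promoter: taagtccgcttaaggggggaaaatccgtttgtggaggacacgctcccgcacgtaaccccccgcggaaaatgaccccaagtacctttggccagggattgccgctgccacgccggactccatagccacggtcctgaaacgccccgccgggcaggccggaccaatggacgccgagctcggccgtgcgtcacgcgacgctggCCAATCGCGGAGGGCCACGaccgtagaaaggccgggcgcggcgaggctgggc
HSPA5 promoter: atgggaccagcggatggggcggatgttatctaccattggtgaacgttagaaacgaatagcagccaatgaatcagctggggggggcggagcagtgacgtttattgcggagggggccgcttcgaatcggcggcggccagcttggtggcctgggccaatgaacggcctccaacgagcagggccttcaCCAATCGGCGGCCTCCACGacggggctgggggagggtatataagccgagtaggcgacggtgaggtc
HERPUD1 promoter: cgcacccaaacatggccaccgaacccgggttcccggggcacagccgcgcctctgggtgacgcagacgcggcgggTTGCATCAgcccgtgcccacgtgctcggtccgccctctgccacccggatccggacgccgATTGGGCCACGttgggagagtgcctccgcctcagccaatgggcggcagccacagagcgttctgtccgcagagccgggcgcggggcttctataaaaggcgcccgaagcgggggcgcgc
HSP90B1 promoter: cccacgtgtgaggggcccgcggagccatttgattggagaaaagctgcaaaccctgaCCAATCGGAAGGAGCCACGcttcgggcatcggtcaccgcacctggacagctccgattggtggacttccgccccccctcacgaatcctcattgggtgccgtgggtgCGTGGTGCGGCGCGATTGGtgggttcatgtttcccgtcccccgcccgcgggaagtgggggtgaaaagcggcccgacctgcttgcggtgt
CALR promoter: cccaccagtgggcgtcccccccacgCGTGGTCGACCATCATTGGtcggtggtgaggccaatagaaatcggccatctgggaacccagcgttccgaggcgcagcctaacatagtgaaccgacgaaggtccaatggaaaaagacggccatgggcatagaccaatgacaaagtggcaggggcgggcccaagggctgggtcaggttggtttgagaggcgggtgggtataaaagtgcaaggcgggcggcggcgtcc

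In XBP1 the element spans positions -52 to -34 from the gene start and in HSPA5 -66 to -48. HSP90B1 has a copy at -194 to -176 and another, on the opposite strand, at -89 to -71, and CALR has one on the opposite strand at -225 to -207. The HERPUD1 ERSE-II lies at -117 to -107 and its C/EBP-ATF composite at -176 to -169. RefSeq windows of 300 bases (250 before and 50 after the start) were at hand for 34 of the 37 members, and those of PDIA3, DERL1 and DERL3 were not used here. On either strand, an ERSE was found in 7 of these 34 members (20.6%), namely XBP1, HSPA5, HSP90B1, CALR, CANX, CRELD2 and, at its alternative start, PDIA6, against 0.0769% of 35116 promoters of all genes. An ERSE-II was found in HERPUD1, HYOU1 and SDF2L1 (8.82% of members, against 0.0541% of all promoters). The core of the unfolded protein response element, TGACGTGG, was found in DNAJC10, HYOU1, TXNDC11 and, at an alternative start, TXNDC5 (11.8% against 0.729%). In HYOU1 it overlaps 1 of the 2 copies of ERSE-II. The composite TTGCATCA was found in HERPUD1 (2.94% against 0.866%). A member with several annotated starts counts once when any of its windows matches, while the background counts each window, those of the members included. Many members are known targets of the factors that bind ER stress response elements, so a higher share among them is no independent finding. A match describes the letters in these windows and is not a measured binding site.

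**Figure D1:**
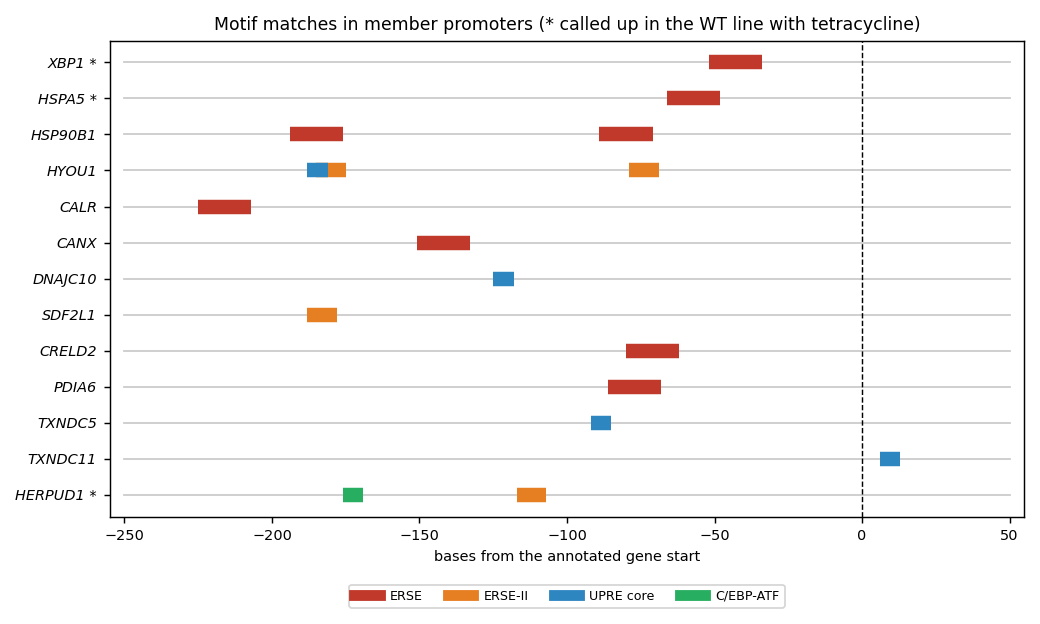
Positions of 4 motifs in the promoter windows of the 13 members with a match, in bases from the annotated gene start (dashed line), with 1 row per gene; an asterisk marks members that rose in the WT line with tetracycline. XBP1, HSPA5 and HERPUD1 carry asterisks, and the other 10 rows, among them HSP90B1 with 2 copies of the ERSE, do not.

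Values are log2 MAS5 signals, which the authors had scaled so that all arrays share a trimmed mean, and differences between groups are log2 differences, where 1 is a doubling, with the standard error (SE) of a linear model (limma) over all 12 arrays and n = 3 arrays per group. A gene was called to rise or fall at a Benjamini-Hochberg adjusted p under 0.05 over all 29553 tested probe sets. Signals of 1 gene are compared across groups and never with those of another gene. In bulk RNA of this kind, fewer cells that express a gene and less RNA per cell cannot be told apart.

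The targeted gene does not check the labels. The brightest TRPM7 probe set averaged 7.62 with tetracycline and 8.47 untreated in the WT line (difference -0.85, SE 0.30, limma adjusted p = 0.0644), and 8.19 with tetracycline and 8.39 untreated in the mutant line, no TRPM7 probe set was called as a rise in either line, and 1 dimmer one fell in the WT line (log2 -2.00, adjusted p = 0.0411). All directions below therefore rest on the labels. The kidney developmental factors PAX2 and PAX8 and the neurofilament NEFL, all usual in HEK cells, had tested signals, and LHX1 did not pass the filter. Of the 4 listed plasma cell markers with a value, SDC1 and IGHG1 were tested and JCHAIN and TNFRSF17 were too dim; of the 5 blood cell markers, CD79A and HBB were tested and MS4A1, CD3E and PTPRC were too dim. SDC1, a surface proteoglycan, had 10.29, 10.60 and 10.41 with tetracycline against 9.52, 10.19 and 10.04 untreated in the WT line (log2 0.52, limma adjusted p = 0.0819), and between the treated lines it was higher for WT (0.70, adjusted p = 0.0155). IGHG1 differed by -0.05 in the WT line (limma adjusted p = 0.943). The summed linear signal of the 4 plasma cell markers was 1326 to 1686 with tetracycline and 856 to 1248 untreated in the WT line. In the mutant line it was 795 to 1105 with tetracycline and 879 to 1004 untreated. This sum mainly follows SDC1, with a mean log2 signal of 9.95 over the 12 arrays against 6.2 for IGHG1. The part of these markers in the results was not tested. RNA of the WT line gave a log2 ratio of 3′ to 5′ beta-actin signal of 1.05 ± 0.265, against 0.259 ± 0.0262 in the mutant line (SD, n = 6 each, exact permutation p = 0.00216, 2-sided); the GAPDH ratio was 0.0831 for WT and 0.0745 for mutant cells (exact p = 0.779). Within the WT line the actin ratio was 1.11 with tetracycline and 0.987 untreated (exact p = 0.6, where 3 arrays against 3 allow no p under 0.1). The part of RNA integrity in the results between lines was not tested. Arrays of a group were also farther apart in the WT line, where the median SD over members was 0.242 with tetracycline and 0.249 untreated, than in the mutant line, where it was 0.15 and 0.116. The model gives each probe set 1 spread shared by all 12 arrays. Where the lines differ in spread, SEs and p-values within the WT line are therefore too small. Intervals within the mutant line are then too wide. On the untreated WT array of replicate 2, members lay low: their median deviation from each gene's mean over 12 arrays was -0.37 there, against -0.03 and -0.02 on the other untreated WT arrays, while over all 13067 tested genes it was 0.02.

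Tetracycline in the WT line raised 11 of the 35 members and lowered 0. They were the sensors ERN1 and EIF2AK3, the transcription factor XBP1, the chaperones and co-chaperones HSPA5, DNAJB9, DNAJC3 and MANF, the folding enzymes P4HB and ERP44 and the degradation genes HERPUD1 and DERL1. Of all genes with a tested representative, 9.41% rose and 8.57% fell in this comparison, so that 11 of 35 is a larger share than among all genes, and 0 falls a smaller one. The members were chosen with earlier results of these data known, so these shares are no independent test. The median member changed by 0.30 and the median of all tested genes by 0.03, and 29 of the 35 differences were above 0. At an unadjusted p under 0.05 there were 15 members (42.9%), against 32.9% of all tested genes. The sensors and XBP1 had the highest median of the roles, 0.99 over 4 genes of which 3 rose, against 0.30 for the 7 folding enzymes (2 rose), 0.16 for the 12 chaperones and co-chaperones (4 rose) and 0.12 for the 9 degradation genes (2 rose). Several of these calls depend on which arrays enter the fit. Dropping replicate 3 from every group left XBP1, MANF and HERPUD1, 3 calls. Far fewer probe sets were called over the whole array there too, so the loss was not confined to members. Among the members that lost their calls, ERN1 (0.98), HSPA5 (0.99), DNAJB9 (0.42), EIF2AK3 (0.69) and DERL1 (0.51) had smaller differences there. Those of DNAJC3 (0.54) and P4HB (0.60) were slightly larger, and that of ERP44 (0.41) was about the same. Fitting the WT arrays alone left XBP1, MANF, HERPUD1 and ERN1, 4 calls, again with far fewer called over the whole array. When all probe sets of a gene were averaged, the median over members was 0.10.

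**Figure D2:**
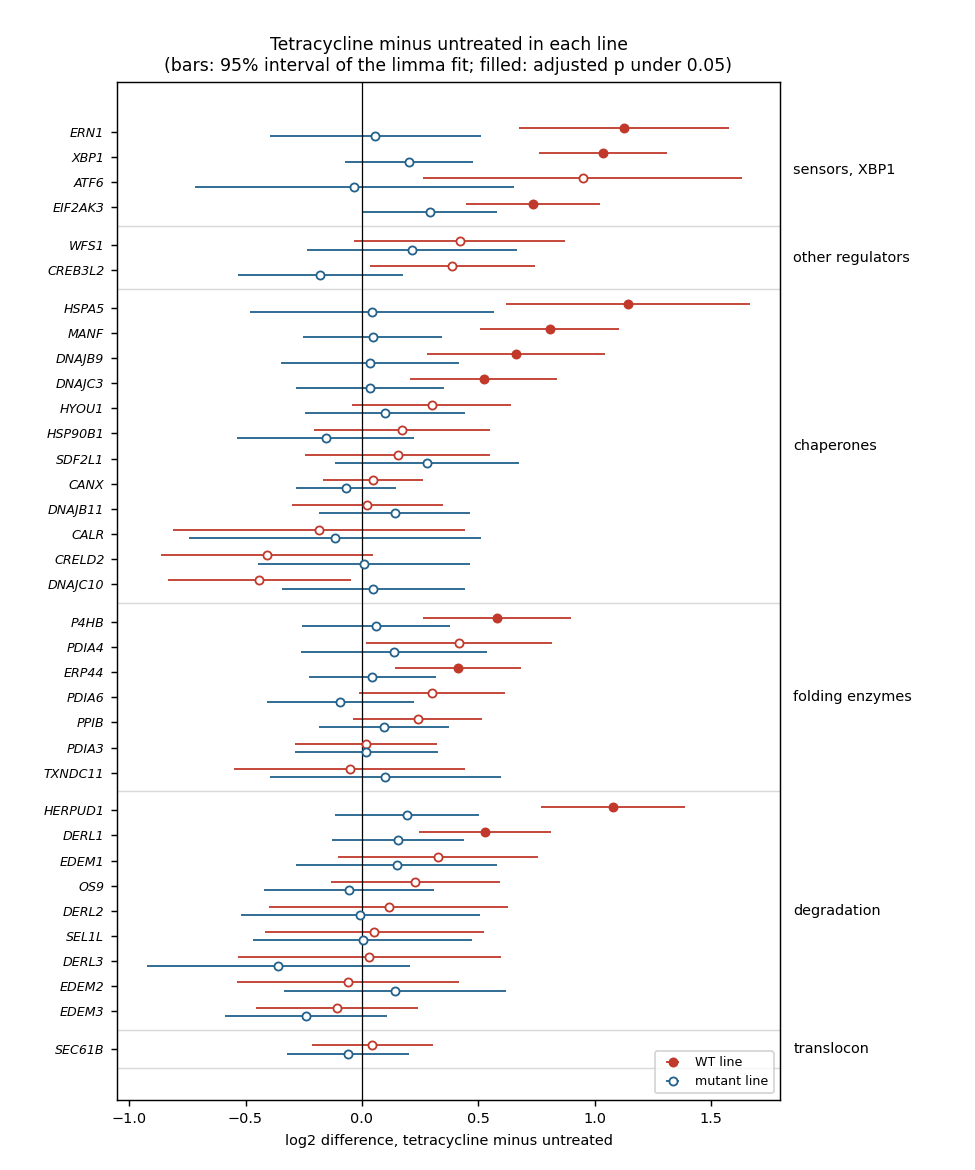
Log2 difference between tetracycline and untreated cells (x axis) for the 35 measured members by role, for WT (red) and mutant (blue) cells, with 95% intervals of the limma fit; filled points have an adjusted p under 0.05. The 11 filled points are all red and lie between 0.41 and 1.14, and the blue points lie between -0.36 and 0.29.

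The sensors were among the members with the largest differences. ERN1, the kinase and endoribonuclease that splices XBP1 mRNA, had 9.0, 9.56 and 9.68 with tetracycline in the WT line, against 8.14, 8.45 and 8.27 in untreated WT cells. All treated arrays lay above all untreated ones, a 2.18-fold difference (log2 1.13, SE 0.21, adjusted p = 0.00294). In the mutant line ERN1 lay close to its level in untreated WT cells, at 8.50, 8.47 and 8.15 with tetracycline and 8.26, 8.19 and 8.51 untreated (log2 difference 0.06, 95% interval -0.39 to 0.51).

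XBP1, the transcription factor downstream of ERN1, had signals of 11.89, 12.04 and 12.15 with tetracycline, against 11.01, 11 and 10.96 in untreated WT cells. This 2.05-fold rise had the smallest adjusted p of the members (log2 1.04, SE 0.13, adjusted p = 0.000274). Mutant arrays with tetracycline had 11.13, 10.94 and 11.25 and the untreated arrays 10.88, 10.80 and 11.03, which overlap (log2 difference 0.20, 95% interval -0.07 to 0.48). The probe set gives 1 signal for the gene, and spliced and unspliced XBP1 mRNA were not measured apart.

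EIF2AK3, the sensor that phosphorylates eIF2alpha, had 10.51, 10.43 and 10.39 with tetracycline and 9.74, 9.83 and 9.55 untreated in the WT line (log2 0.74, SE 0.13, adjusted p = 0.00252). Its pattern over the groups was not that of ERN1 and XBP1: the lowest signals were those of untreated WT cells, and the mutant line was at 10.67, 10.61 and 10.66 with tetracycline and 10.48, 10.36 and 10.23 untreated. The treated mutant arrays lay above the untreated ones without overlap, but the difference of 0.29 (SE 0.13) had an adjusted p of 1 in limma.

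ATF6, the membrane-bound precursor of a transcription factor, missed the threshold in the WT line (log2 0.95, SE 0.32, adjusted p = 0.0553). It had 10.48, 9.78 and 9.90 with tetracycline and 8.25, 9.21 and 9.84 untreated, so the groups overlap and the untreated arrays have the widest spread of the 4 groups (SD 0.80). Without the untreated WT array of replicate 3, the difference was 1.32 and passed. The mutant line had 10.01, 10.22 and 9.51 with tetracycline and 9.91, 10.15 and 9.79 untreated. The further ATF6 probe sets that were tested had WT differences of -0.01, -0.13 and -0.04.

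The other regulators in the ER membrane were WFS1, a glycoprotein tied to ER calcium and lost in Wolfram syndrome, and CREB3L2, a transcription factor anchored in the ER like ATF6. In the WT line WFS1 had 9.19, 8.83 and 8.88 with tetracycline against 8.82, 8.15 and 8.67 untreated (log2 0.42, adjusted p = 0.192). CREB3L2 had 10.32, 10.74 and 10.47 with tetracycline against 10.19, 10.26 and 9.91 untreated (log2 0.39, adjusted p = 0.125). Neither passed, although the treated arrays of both lay above all untreated ones. With the 11 called genes this made 13 of 35 members whose WT groups did not overlap in this direction, where 15.3% of all tested genes did so. In the other direction there were 0 members, and the share of all tested genes was not computed.

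**Figure D3:**
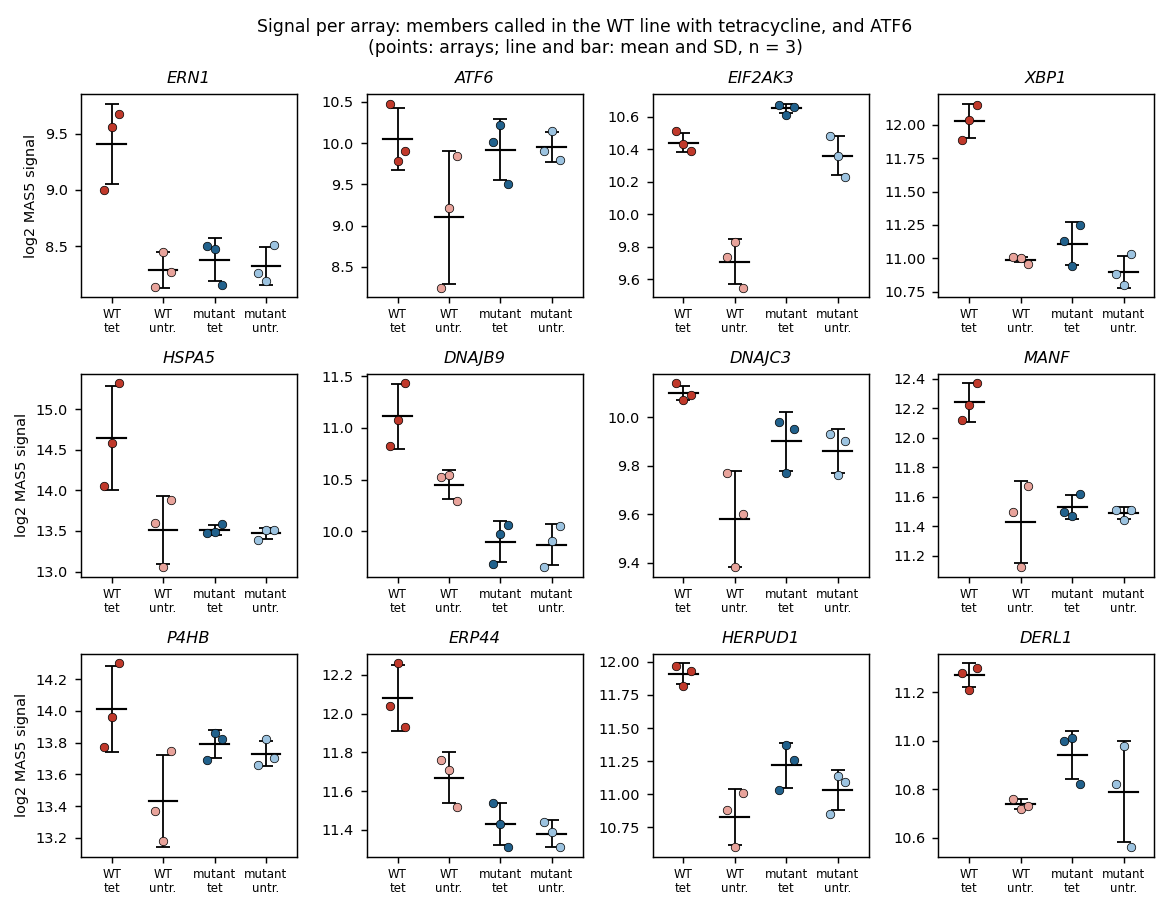
Log2 MAS5 signal on each array (points) for the 11 members called in the WT line and for ATF6, with the mean and SD of the 3 arrays of a group, from left to right WT with tetracycline, WT untreated, mutant with tetracycline and mutant untreated. For XBP1 the WT arrays with tetracycline lie between 11.89 and 12.15 and all other arrays at or below 11.25; for EIF2AK3 the untreated WT arrays lie below all others.

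Among the chaperones, the Hsp70 of the ER and some of its partners rose. HSPA5, also called BiP, had signals of 14.05, 14.59 and 15.32 with tetracycline in the WT line, against 13.60, 13.05 and 13.88 untreated, a 2.21-fold difference (log2 1.14, SE 0.25, adjusted p = 0.0063). The WT arrays were widely spread (SD 0.64 with tetracycline and 0.42 untreated), and those of the mutant line were not, at 13.47, 13.49 and 13.58 with tetracycline and 13.39, 13.51 and 13.51 untreated (SD 0.06 and 0.07). The log2 difference there was 0.04 (95% interval -0.48 to 0.57).

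MANF, a small ER-retained protein that is secreted under stress, had 12.12, 12.22 and 12.37 with tetracycline against 11.50, 11.12 and 11.67 untreated in the WT line (log2 0.81, SE 0.14, adjusted p = 0.00183). It stayed called under all 22 alternatives to the processing. Mutant cells had MANF signals of 11.50, 11.47 and 11.62 with tetracycline and 11.51, 11.44 and 11.51 untreated, and those groups overlap (log2 difference 0.05).

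DNAJB9, a J-domain co-chaperone of HSPA5 that also holds ERN1 in check, had 10.82, 11.08 and 11.43 with tetracycline against 10.52, 10.54 and 10.29 in untreated WT cells (log2 0.66, SE 0.18, adjusted p = 0.0216). Both WT groups lay above all arrays of the mutant line, which had 9.68, 9.97 and 10.06 with tetracycline and 9.65, 9.91 and 10.05 untreated. DNAJC3, a co-chaperone first described as an inhibitor of eIF2alpha kinases, had 10.14, 10.07 and 10.09 with tetracycline against 9.77, 9.38 and 9.60 untreated in the WT line (log2 0.52, SE 0.15, adjusted p = 0.0267). Its mutant arrays had 9.98, 9.77 and 9.95 with tetracycline and 9.93, 9.76 and 9.90 untreated. These are smaller changes with less firm calls: DNAJB9 lost its call under 6 of 22 alternatives and DNAJC3 under 7, among them for DNAJC3 leaving out the low untreated array of replicate 2 (log2 0.42).

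The remaining 8 chaperones did not pass, and several are classical targets of the response. HSP90B1, the Hsp90 of the ER, had 12.17, 12.38 and 12.96 with tetracycline against 12.50, 12.04 and 12.46 untreated in the WT line (log2 0.17, 95% interval -0.21 to 0.55). CALR, a lectin chaperone and calcium store protein, had 12.89, 11.65 and 12.05 against 12.83, 11.68 and 12.63 (log2 -0.19, 95% interval -0.81 to 0.44). For both genes the groups overlap and the interval runs from a fall to a rise. The membrane lectin CANX differed by 0.05 (95% interval -0.17 to 0.26), the narrowest interval of the members. HYOU1, a large Hsp70-like exchange factor, differed by 0.30 (95% interval -0.04 to 0.64) and the J-domain co-chaperone DNAJB11 by 0.02 (-0.30 to 0.35). SDF2L1, a partner of DNAJB11, differed by 0.15. DNAJC10, a J-domain disulfide reductase, and CRELD2, an ER-resident protein known to be induced by stress, had differences of -0.44 (adjusted p = 0.115) and -0.41 (adjusted p = 0.208). Without the untreated WT array of replicate 2 both passed as falls, which made 9 rises and 2 falls.

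Among the folding enzymes, P4HB (protein disulfide isomerase) had 13.77, 13.96 and 14.30 with tetracycline in the WT line, against 13.37, 13.18 and 13.75 untreated. The lowest treated array lay just above the highest untreated one, and the difference of 0.58 (SE 0.15) had an adjusted p of 0.0163. ERP44, which holds unfinished secretory proteins and the oxidase ERO1 in the early secretory pathway, had 12.04, 12.26 and 11.93 against 11.76, 11.71 and 11.52 (log2 0.41, SE 0.13, adjusted p = 0.0377). Its call was the least firm of the 11 and held under 10 of 22 alternatives. In the mutant line P4HB had 13.69, 13.86 and 13.82 with tetracycline and 13.66, 13.82 and 13.70 untreated, a difference of 0.06. ERP44 had 11.54, 11.43 and 11.31 there with tetracycline and 11.44, 11.39 and 11.31 untreated, a difference of 0.05.

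PDIA4 and PDIA6, other disulfide isomerases of the ER, did not pass in the WT line. PDIA4 had 10.60, 10.53 and 11.02 with tetracycline against 10.33, 9.97 and 10.59 untreated (log2 0.42, adjusted p = 0.142), and PDIA6 had 13.04, 12.88 and 13.36 against 12.70, 12.60 and 13.08 (log2 0.30, adjusted p = 0.176). For both the treated and untreated ranges overlap. The prolyl isomerase PPIB differed by 0.24 (95% interval -0.04 to 0.52), PDIA3, which works with the lectin chaperones, by 0.02 (-0.29 to 0.32) and TXNDC11, a thioredoxin-domain protein, by -0.05.

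ER-associated degradation returns misfolded proteins to the cytosol for the proteasome. HERPUD1, a ubiquitin-like membrane protein of the SYVN1 ligase complex, rose most in this role: it had 11.97, 11.82 and 11.93 with tetracycline in the WT line against 10.88, 10.60 and 11.01 untreated, a 2.11-fold difference (log2 1.08, SE 0.14, adjusted p = 0.000391). The treated WT arrays lay far above all others, and the mutant line had 11.03, 11.37 and 11.26 with tetracycline and 10.85, 11.14 and 11.09 untreated (log2 0.19, 95% interval -0.12 to 0.50). DERL1, a derlin through which substrates leave the ER, had 11.28, 11.21 and 11.30 against 10.76, 10.72 and 10.73 in the WT line (log2 0.53, SE 0.13, adjusted p = 0.0149). Its mutant arrays had 11, 11.01 and 10.82 with tetracycline and 10.82, 10.98 and 10.56 untreated, and they overlap (log2 0.15).

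The other 7 degradation genes did not pass in the WT line. EDEM1, a lectin-like protein that takes glycoproteins to degradation, had 9.99, 9.57 and 9.09 with tetracycline against 9.21, 9.14 and 9.33 untreated (log2 0.33, adjusted p = 0.29), and OS9, a lectin that delivers substrates to the ligase complex, had 11.72, 11.18 and 11.42 against 11.17, 11.11 and 11.36 (log2 0.23, adjusted p = 0.386). The treated EDEM1 arrays spread on both sides of the untreated ones (SD 0.45). The ligase adaptor SEL1L differed by 0.05, EDEM2 by -0.06, EDEM3 by -0.11, and the derlins DERL2 and DERL3 by 0.12 and 0.03. SEC61B, a subunit of the translocon through which new proteins enter the ER, had 13.60, 13.82 and 13.78 with tetracycline against 13.55, 13.82 and 13.71 untreated (log2 0.04, 95% interval -0.22 to 0.30).

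The probe sets of a gene did not always move together, which bears on some of these calls. Beside the chosen ones, 42 further probe sets of 23 members were tested, and 24 of them differed in the WT line in the same direction as the chosen probe set. Only 1 was called as a rise, a second DNAJB9 probe set (log2 0.63, adjusted p = 0.0423; 7.83% of all tested probe sets rose), and 5 were called as falls, where 9.11% of all tested probe sets fell. For DERL1 the choice decides the direction: a probe set with a mean signal of 10.85, next to 10.93 for the chosen one, averaged 10.44 with tetracycline and 11.02 untreated (log2 -0.59, adjusted p = 0.0123), and another differed by -0.53 (adjusted p = 0.0641). For ERP44 a dimmer probe set averaged 7.86 with tetracycline and 8.74 untreated (log2 -0.88, adjusted p = 0.00748). Dimmer probe sets of PDIA3 (log2 -0.83 and -1.10) and one of DNAJC10 (log2 -1.14) were also called as falls. Further DNAJC10 probe sets, brighter than that one (mean signals 10.44 and 10.39 against 8.06), differed by 0.36 and 0.21, with no call. A second ERN1 probe set differed by 0.75 (adjusted p = 0.061) and another by -0.35, a second HSPA5 probe set by 0.43 (adjusted p = 0.393), and both further P4HB probe sets by 0.53 and 0.70, with no call. The second probe sets of XBP1, HERPUD1 and EIF2AK3 were too dim to be tested, and MANF had no other. The chosen probe sets of HSP90B1, CALR, PDIA6, OS9 and DERL3 carry the suffix x_at, which marks probes that may also match other transcripts. When all probe sets of a gene were averaged, MANF rose and PDIA3 fell, 2 calls in place of 11.

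**Figure D4:**
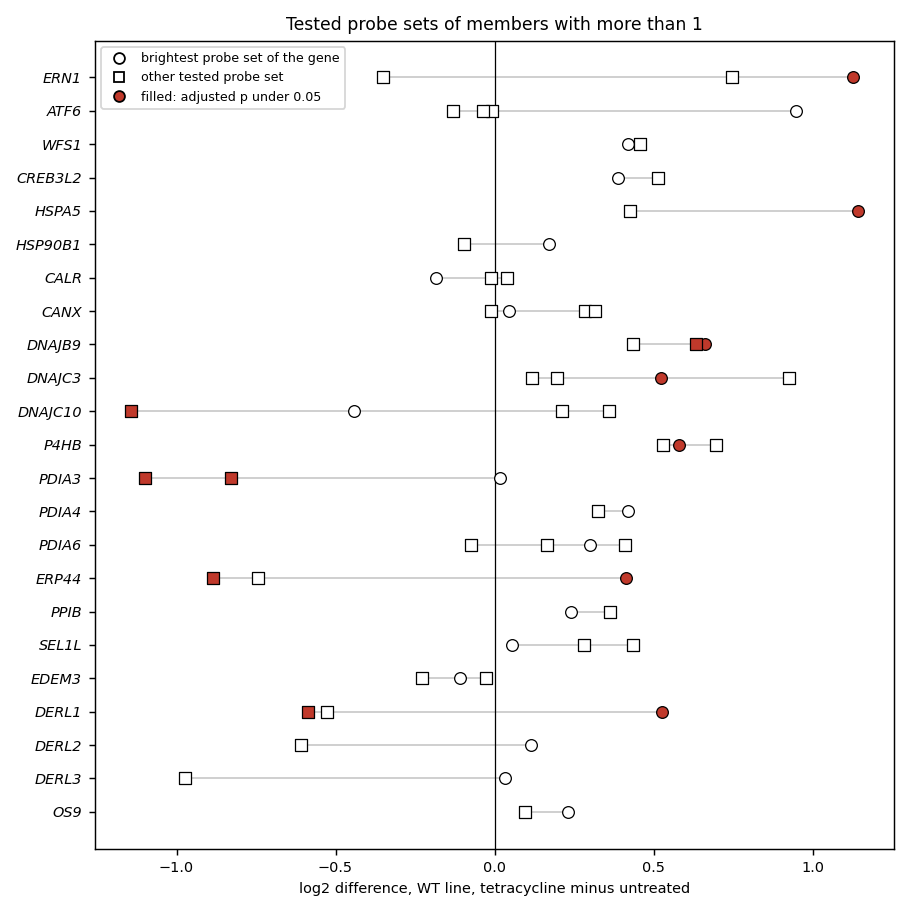
Log2 difference between tetracycline and untreated cells of the WT line (x axis) for every tested probe set of the members with more than 1, with 1 row per gene; circles are the chosen probe sets, squares the others, and filled symbols have an adjusted p under 0.05. For ERP44 and DERL1 a filled circle lies right of 0 (0.41 and 0.53) and a filled square left of it (-0.88 and -0.59).

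Tetracycline in the mutant line called 0 of the 35 members with limma, as it did for 0% of all tested genes. At an unadjusted p under 0.05 there was 1 (2.86%), EIF2AK3, against 1.77% of all tested genes. The differences lay between -0.36 (DERL3) and 0.29 (EIF2AK3), with a median of 0.05 over members and 0.02 over all tested genes. Treated arrays of 2 members, EIF2AK3 and EDEM1, lay above all untreated ones, where 7.7% of all tested genes did so. Those of DERL3 lay below, a direction for which the share of all tested genes was not computed. The 11 members called in the WT line were near their untreated level here: on each of the 3 treated mutant arrays 9 of the 11 were above the mean of the untreated mutant arrays, by a median of 0.12, 0.11 and 0.11. On the treated WT arrays the median of the same genes over the untreated WT mean was 0.56, 0.73 and 0.94, values which the choice of these genes used.

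The difference between the inductions in the WT and mutant lines was itself tested and passed for 0 of 35 members, where 0.145% of all tested genes passed. At an unadjusted p under 0.05 there were 11 members (31.4%), against 15.2% of all tested genes, and the median difference of inductions was 0.28 over members against 0.01 over all tested genes. XBP1 came nearest, with an induction larger by 0.83 in the WT line (SE 0.18, 95% interval 0.44 to 1.22, adjusted p = 0.0791), then HERPUD1 with 0.89 (SE 0.20, 95% interval 0.45 to 1.32, adjusted p = 0.0873) and MANF with 0.76 (SE 0.20, adjusted p = 0.114). ERN1 differed by 1.07 (adjusted p = 0.132) and HSPA5 by 1.10 (adjusted p = 0.173). Without the treated WT array of replicate 1 these 5 genes passed. They also passed with limma array weights, under which that array had the lowest weight of the 12 (0.267). Under both settings many more probe sets passed over the whole array as well, so the gain was not confined to these genes. The intervals of the individual members above exclude 0 but not after adjustment over the whole array, so a call in the WT line and none in the mutant line is not shown to be a difference between them.

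With tetracycline in both lines, the chosen probe sets of 10 members were higher and 0 lower in WT than in mutant cells. Of all tested genes 13.3% were higher and 14.9% lower. The median difference was 0.15 over members and -0.03 over all tested genes; with all probe sets of a gene averaged, the median over members turned to -0.02. This comparison uses the same treated WT arrays as the WT induction, so the overlap of the lists is not independent: ERN1 (1.04), XBP1 (0.92), HSPA5 (1.14), DNAJB9 (1.21), MANF (0.70), ERP44 (0.65) and HERPUD1 (0.69) were called in both. CREB3L2 (log2 0.73, adjusted p = 0.00571), PDIA6 (0.54, adjusted p = 0.0151) and SEC61B (0.40, adjusted p = 0.0259) were called between the treated lines but not in the WT induction. SEC61B had 13.60, 13.82 and 13.78 with tetracycline in the WT line and 13.21, 13.21 and 13.59 with tetracycline in the mutant line, and its call held under 12 of 22 alternatives. EIF2AK3, P4HB, DNAJC3 and DERL1, called in the WT induction, did not pass here (log2 -0.20, 0.22, 0.20 and 0.32). After quantile normalization 9 members were higher and 2, PDIA3 and PPIB, lower, and with array weights 11 were higher and 3, DNAJC10, PDIA3 and EDEM2, lower. With all probe sets of a gene averaged, 6 were higher, HSP90B1 and PDIA4 among them, and 1, DERL3, lower. Without the replicate 3 arrays 5 remained, XBP1, HSPA5, DNAJB9, MANF and ERP44. Further probe sets were called as higher for HSPA5 (1.09), HSP90B1 (1.32), DNAJB9 (0.82 and 1.12), PDIA4 (1.03) and PDIA6 (0.52 and 0.45). Others were called as lower for CALR (-1.96), CANX (-0.59), DERL1 (-0.41 and -1.015), DERL2 (-1.19) and DERL3 (-1.28). For ERP44, called higher by its chosen probe set, a dimmer one was called lower (-0.77).

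In untreated cells the lines differed in the chosen probe sets of 3 members. DNAJB9 was higher in the WT line (log2 0.58, SE 0.18, adjusted p = 0.0458), and EIF2AK3 (log2 -0.65, SE 0.13, adjusted p = 0.00714) and HYOU1 (log2 -0.58, SE 0.16, adjusted p = 0.0295) were lower. Among all tested genes 5.84% were higher and 6.82% lower. The median over members was -0.05, below 0 by less than the spread between arrays of a group. HYOU1 had 10.03, 10.05 and 10.47 in untreated WT cells and 10.75, 10.85 and 10.69 in untreated mutant cells, and the low level remained with tetracycline, at 10.20, 10.63 and 10.62 in WT cells and 10.93, 10.86 and 10.80 in mutant cells (log2 -0.38, adjusted p = 0.0944). EIF2AK3 averaged 9.71 in untreated WT cells and 10.36 in untreated mutant cells, and with tetracycline 10.44 in WT and 10.65 in mutant cells. ATF6 (log2 -0.85, adjusted p = 0.0968) and DERL3 (log2 -0.78, adjusted p = 0.0653) came near the threshold. Without the untreated WT array of replicate 2 only EIF2AK3 was called, leaving out any 1 untreated mutant array left the same single call, and quantile normalization gave 1 higher and 4 lower, with P4HB and PPIB added to the lower ones. DNAJB9 kept its call under 9 of 22 alternatives. Further probe sets were called as lower in the untreated WT line for CALR (-1.975), P4HB (-1.13), CANX (-0.97) and WFS1 (-0.89). Those called as higher there were of HSP90B1 (1.10) and PDIA6 (0.44). With all probe sets of a gene averaged, 0 members were higher and 3 lower, WFS1, HYOU1 and P4HB.

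**Figure D5:**
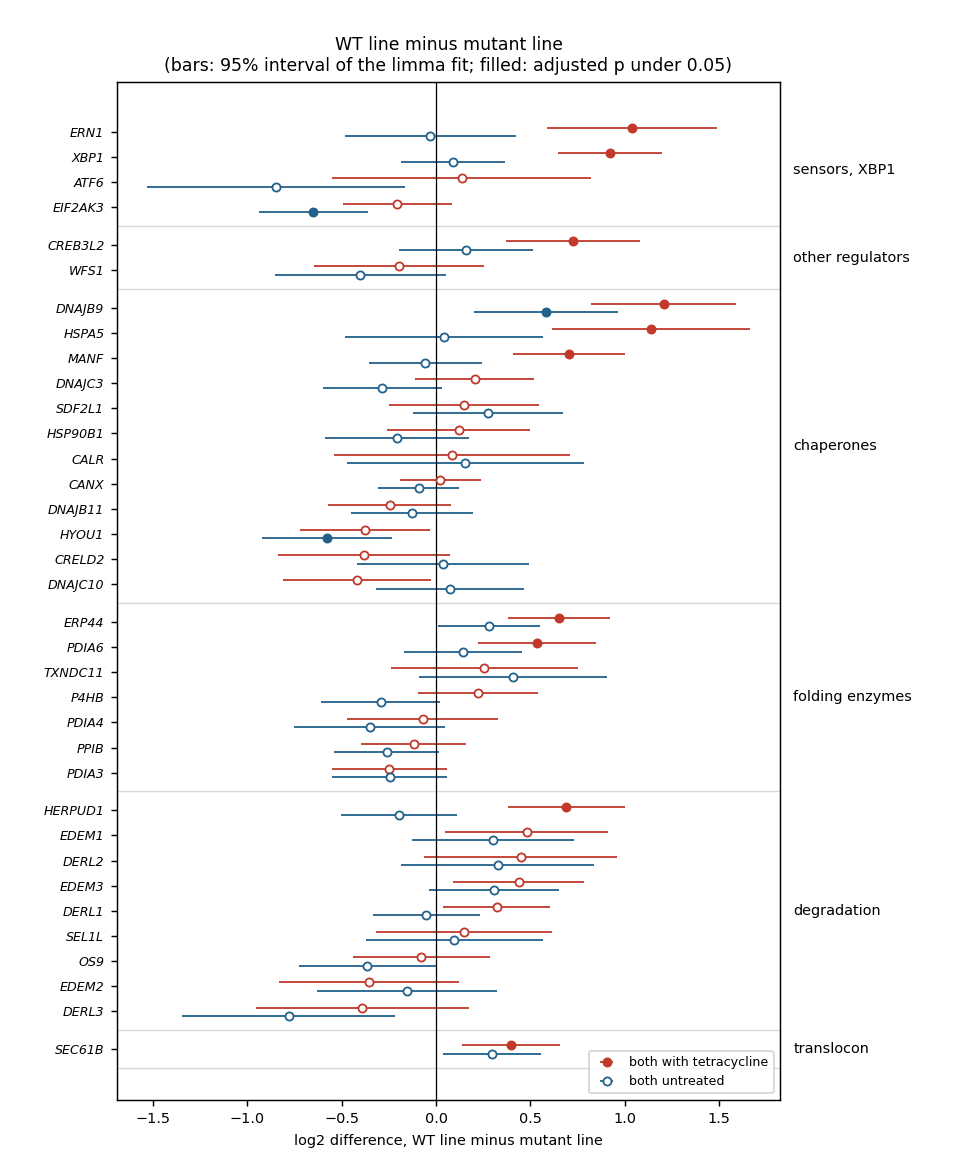
Log2 difference between the WT line and the mutant line (x axis) for the 35 measured members by role, with tetracycline in both lines (red) and untreated in both (blue), with 95% intervals of the limma fit; filled points have an adjusted p under 0.05. For ERN1, XBP1, HSPA5 and MANF the red point lies between 0.70 and 1.14 and the blue point between -0.06 and 0.09.

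Members rose in the WT line both with and without an exact match to an ER stress response element in their windows. Only exact matches were counted, so a member with a variant or more distant element counts as lacking it. PDIA6 counts as carrying an ERSE by its alternative start alone. Whether the element has a part in the rises was not tested. Of the 10 measured members with an ERSE or ERSE-II in the window, 3 rose, XBP1, HSPA5 and HERPUD1, and the differences ran from -0.41 (CRELD2) to 1.14 (HSPA5) with a median of 0.24. Of the 22 members with a window but neither element, 7 rose, with a range of -0.44 (DNAJC10) to 1.13 (ERN1) and a median of 0.36. The medians of the mutant induction were 0.03 with an element and 0.05 without. HSP90B1, with 2 copies, and CALR, both printed above, differed by 0.17 and -0.19 in the WT line, next to 1.14 for HSPA5 with 1 copy.

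Beyond these members, 50 other genes of the same machinery had a tested representative: genes of the sensor arms, further folding and glycan-processing genes, degradation genes and translocon genes. They were listed for this comparison with earlier results of these data known, so their shares are not independent support for the member result. CREB3L1 and RNF5 were too dim to be tested. In the WT line with tetracycline 12 rose (24%) and 1 fell (2%), against 9.41% and 8.57% of all tested genes, with a median of 0.14. The sensor arms gave 4 of 10: DDIT3, a transcription factor downstream of EIF2AK3 and ATF4, with 11.17, 11.20 and 10.91 with tetracycline against 9.03, 9.31 and 8.73 untreated (log2 2.06, SE 0.19, adjusted p = 6.34e-05), PPP1R15A and PPP1R15B, which direct the phosphatase that reverses eIF2alpha phosphorylation (1.79 and 0.70), and ATF4 (0.82). DDIT3 was the only gene among the members and these 50 whose difference of inductions passed, at 1.81 (SE 0.27, adjusted p = 0.0329). In a check added after the data were seen, that call held under 10 of 21 alternatives: the difference lay between 1.66 and 1.95 in all of them, the adjusted p between 0.00107 and 0.832, and the call was lost on leaving out any of 9 of the 12 arrays, all 6 mutant arrays among them.

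Of the 17 other folding and glycan genes 5 rose, the oxidase ERO1A (0.45), the Hsp70-like HSPA13 (0.60), the J-domain protein DNAJC1 (0.58), the prolyl isomerase FKBP7 (0.86) and the glucosidase subunit GANAB (0.57), and 1 fell, the prolyl isomerase FKBP11 (-0.83, adjusted p = 0.00895). Of 13 degradation genes the ubiquitin-conjugating enzyme UBE2J1 (0.73) and the selenoprotein SELENOK (0.64) rose, and of 10 translocon genes SSR3 (0.90). In the mutant line 0 of the 50 were called by limma, and 1 (2%) had an unadjusted p under 0.05, against 1.77% of all tested genes. Between the treated lines 18 were higher in the WT line (36%, against 13.3% of all tested genes) and 3 lower (6%, against 14.9%), 6 of the higher ones among the 10 translocon genes. Between the untreated lines 5 were higher (10%, against 5.84%) and 2 lower (4%, against 6.82%), 3 of the higher ones translocon genes (SEC62, SEC63 and SPCS1). The collagen gene COL1A1, listed as a fibroblast marker, was 10.26, 10.24 and 10.19 with tetracycline and 9.61, 9.51 and 8.93 untreated in the WT line, a rise (log2 0.88, adjusted p = 0.00748), while DCN and LUM, listed with it, were too dim to be tested. Signals of the 6 listed fibroblast and endothelial markers summed to 1377 to 1432 with tetracycline and 736 to 1111 untreated in the WT line. In the mutant line they summed to 856 to 1073 with tetracycline and 837 to 922 untreated. The sum mainly follows COL1A1, with a mean log2 signal of 9.62 over all arrays, against 6.56 for PECAM1, the other tested marker. PECAM1 differed by -0.03 in the WT line (limma adjusted p = 0.978), where its groups overlap. VWF and CDH5 were too dim to be tested. The part of these markers in the results was not tested.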

How the data were processed

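Total RNA (5 ug) of 12 samples, extracted with Trizol, was labelled with biotin and hybridised to 1 Affymetrix array each, per the labels' protocols. The deposited values are MAS5 signals, linear intensities per probe set as the submitters' processing notes name them; version and settings are not given in the sources used here. Their mean after trimming 2% at each end was about 500.1 on every array. Values under 1 (0.337%) were set to 1 before log2. Of 54675 probe sets, 62 controls were left out and 29553 with a group mean above 6.39, the median of all values, were tested. By the platform annotation, 41091 carried 1 symbol and 1801 several.

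One limma model (limma 3.58.1, R 4.3.3; eBayes with trend) with a mean per group gave 5 contrasts, 2-sided. Quality ratios were compared by exact permutation tests. Same-numbered arrays had deviations with correlations from -0.005 to 0.253 and were not treated as pairs. Between treated and untreated arrays of a line these were 0.253, 0.24 and 0.042 for WT and 0.137, 0.026 and 0.21 for mutant cells. The replicate block among the alternatives shared its replicate effects between the lines, and pairs within each line were not modelled. Members, lists and motifs were chosen with earlier results of these data known. Arrays were given in full for the sensors, XBP1, called members up to 4 members per role with the smallest p, and HYOU1, HSP90B1 and CALR; called genes of the other lists were named. The fit was tested on simulated data. Figures used matplotlib 3.10.9 in Python 3.11.15. The alternatives are in the closing section; the number of arrays limits precision.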

Additional observations from a re-analysis of the deposited data

Results flagged for a closer look

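DDIT3, which is no member but belongs to the sensor arms, was the only gene of those described whose difference between the inductions of the WT and mutant lines passed the limma test (log2 1.81, adjusted p = 0.0329). The call held under 10 of 21 alternatives, a check added after the data were seen, and leaving out any of 9 of the 12 arrays ended it.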

How the results depend on the processing

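Of the 11 calls in the WT line (0 falls), no filter left 10, a filter at the 75th percentile (8.92) 12 of 32 tested, eBayes without trend 9, quantile normalization 10, adding 16 before log2 11, array weights 12 rises and 1 fall (DNAJC10; 13 calls) and a replicate block 12, the added one being PDIA4. The block gave 0 calls for the difference, 10 between the treated and 3 between the untreated lines. Leaving out each array in turn gave 8 to 14 for the WT line (falls among them without the treated array of replicate 1, 13 rises and 1 fall, and without the untreated array of replicate 2, 9 and 2), 0 to 5 for the difference, 9 to 13 between the treated lines (11 higher and 2 lower without the treated WT array of replicate 1) and 1 to 4 between the untreated lines; 0 members were called in the mutant line under any of these. Leaving out the replicate 3 arrays gave 3 calls in the WT line, 5 between the treated lines and 1 between the untreated lines. That fit had fewer arrays to estimate the spread, and fewer probe sets were called over the whole array in each of these comparisons. The WT arrays alone gave 4, also with fewer arrays, and without the mutant arrays, which lay closer together. Differences were unchanged in that fit, as for HSPA5 (1.14) and EIF2AK3 (0.74), which lost their calls. Array weights gave 5 for the difference, and 11 higher and 3 lower between the treated lines. More probe sets were called over the whole array in both of these comparisons too. Between the untreated lines quantile normalization gave 5 and eBayes without trend 1; the cause was not tested.

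Averaging every probe set of a gene, dim ones included, gave 2 calls in the WT line, with a median over members of 0.10 there and -0.023 between the treated lines, and turned the WT difference of ERP44 (-0.40), HERPUD1 (-0.048), DERL1 (-0.30) and SEC61B (-0.13), the difference of inductions of CREB3L2 (-0.066), ERP44 (-0.20), DERL1 (-0.39) and SEC61B (-0.28), and the treated lines for CREB3L2 (-0.024), ERP44 (-0.023) and SEC61B (-0.32). SEC61B also turned in the WT line after quantile normalization (-0.017) and without the untreated WT array of replicate 1 (range over left-out arrays -0.028 to 0.110), and the EDEM1 difference of inductions without the treated WT array of replicate 1 (range -0.041 to 0.404). In the WT line MANF kept its call under all 22 alternatives, XBP1 and HERPUD1 under 21, ERN1 under 20, and EIF2AK3, HSPA5 and DERL1 under 19.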
